A study of Nicotiana tabacum with 32 samples.

Results

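ERS encodes a receptor for the plant hormone ethylene, and its transcript was followed in tobacco cells (Nicotiana tabacum, cultivar Xanthi) grown in suspension, either wild type or with the mitogen-activated protein kinase SIPK silenced by RNAi. It was chosen by its symbol, because earlier results of the same data had shown a high ratio of silenced to wild-type cells, and it is 1 of 430 potato gene symbols carried by the 815 clones that the name table of the array gives a single symbol. Of 15360 clones on the array 1 carried the symbol ERS, in 2 spots. The series held 32 arrays with 2 channels each. The genotypes were compared on 24 of them, with silenced cells as query and wild-type cells as reference, 3 arrays in each of 8 conditions: a biotic control at 0 h, harpin at 4 h and 8 h, megaspermin at 4 h and 8 h, an abiotic control at 0 h after preincubation with xanthine, and, after that preincubation, xanthine oxidase for 4 h or 8 h. Another 6 arrays set wild-type cells given harpin or megaspermin for 4 h against untreated wild-type cells at 0 h, and 2 single arrays repeated a comparison (the abiotic control, and harpin in wild-type cells) in the opposite dye orientation. The elicitor harpin is a protein of the bacterium Pseudomonas syringae, megaspermin is an elicitor of the oomycete Phytophthora megasperma, and xanthine oxidase forms superoxide from xanthine. The labels name P. syringae beside megaspermin on the wild-type arrays, so that both sets received the same elicitor rests on its name. Per the labels, cells of a genotype were pooled and then divided into 3 volumes of 10 ml, so the replicate error below is that between volumes of 1 pooled culture. The labels do not say how many silenced lines were used. No clone with a single symbol was recognised as SIPK, so the degree of silencing was not measured here.

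Ethylene receptors sit in the membrane of the endoplasmic reticulum and are related to bacterial histidine kinases. They are negative regulators: without ethylene they keep the kinase CTR1 active, which holds the pathway off, and binding of ethylene switches the receptor off and releases the downstream protein EIN2. Receptors of the ERS type lack the receiver domain that ETR1 carries at its end, and in Arabidopsis the transcript of ERS1 is itself raised by ethylene. Ethylene is made from methionine through S-adenosylmethionine and ACC, and in Arabidopsis MPK6, the counterpart of SIPK, phosphorylates and stabilises ACC synthase.

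Values are log2 ratios of the 2 channels, and the query was taken as the numerator, so a positive value likely stands for more transcript in silenced cells (or, on the 6 wild-type arrays, in treated cells). No label states the direction of the ratio. A potato clone reads tobacco transcripts, so relatives of ERS in tobacco can contribute to its signal. In cultures measured in bulk, fewer cells of a type and less RNA per cell cannot be told apart. A ratio also gives no level: it shows how the genotypes differed in a condition, and not whether wild-type cells, silenced cells or both had moved.

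On all 24 genotype arrays ERS was higher where SIPK was silenced, with both spots above 0 on each array. The mean over the 8 conditions was 2.05 ± 0.10 (standard error of the fit, n = 24), a ratio of 4.13-fold. That error reflects replicate arrays within a condition, and not the spread between conditions or between cultures. The mean ratio is the measure for which the gene was chosen, so it is given as a description without a test. On this mean 72.3% of 6602 clones passed an adjusted p of 0.05 in either direction. Only 13 of these clones had a higher mean than ERS, and among 120 clones with a gene symbol other than a locus number ADH1 alone did. Were the ratio the other way up, the same values would place ERS as far toward the lower end in silenced cells.

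In the biotic control the 3 arrays read 3.05, 2.70 and 2.12, a mean of 2.62 ± 0.47 (SD, n = 3) or 6.15-fold. With harpin at 4 h they read 3.00, 1.61 and 2.96 (2.53 ± 0.79, n = 3), replicate 2 lying below the other two. With harpin at 8 h they read 3.72, 3.14 and 3.14 (3.33 ± 0.34, n = 3), a ratio of 10.1-fold, and every array stood above every array of the biotic control. At this time ERS ranked 6 among 8324 clones.

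The ratios with megaspermin were lower and more scattered. At 4 h the arrays read 1.41, 2.75 and 0.76 (1.64 ± 1.02, n = 3), and at 8 h 1.15, 1.90 and 0.68 (1.24 ± 0.62, n = 3), which is 2.36-fold. Replicate 2 was the highest array at both times and replicate 3 the lowest. At 8 h 2.37% of 9819 clones had a higher ratio than ERS, against 0.0601% of 8324 with harpin at the same time.

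In the abiotic set the ratio was moderate throughout. The control read 1.42, 1.86 and 1.18 (1.49 ± 0.34, n = 3), a ratio of 2.80-fold, and the single dye-exchanged array of the same comparison read 1.40, inside that range. With xanthine oxidase the arrays read 1.58, 1.50 and 2.19 at 4 h (1.75 ± 0.38, n = 3) and 1.80, 1.30 and 2.22 at 8 h (1.77 ± 0.46, n = 3). All 3 groups of this set overlapped.

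**Figure D1:**
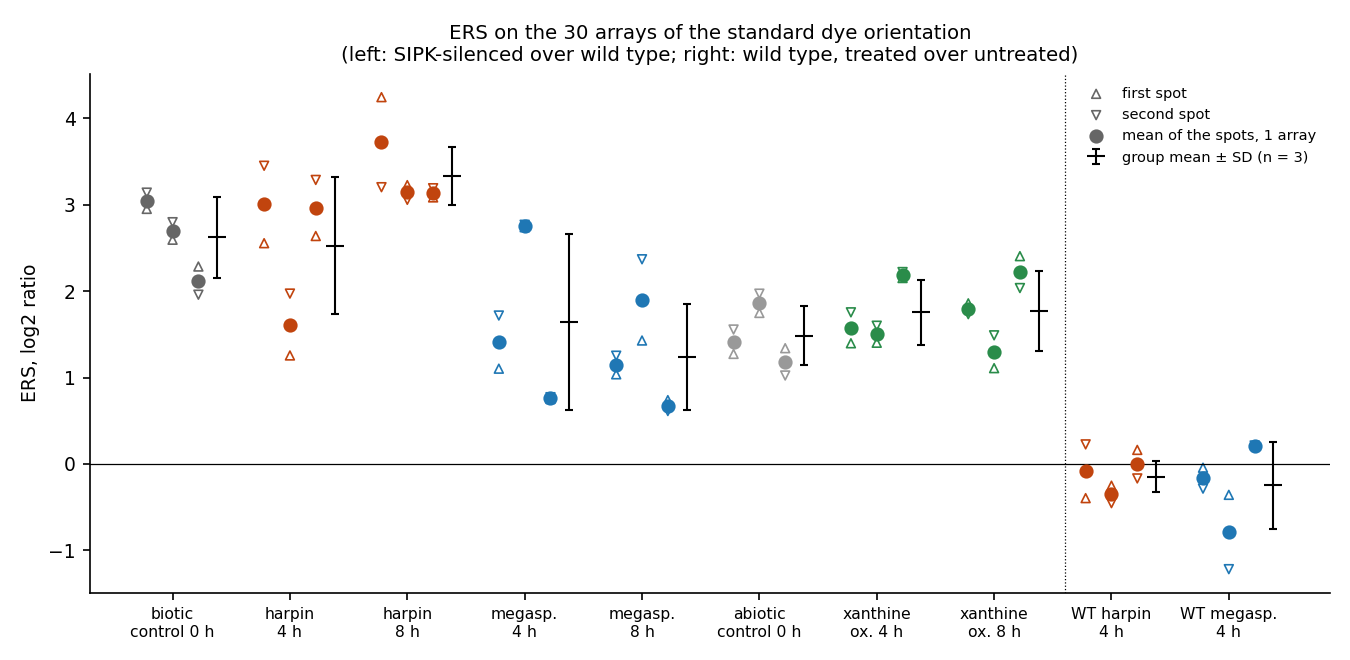
Log2 ratio of ERS (vertical axis) on each of the 30 arrays of the standard dye orientation, by group (horizontal axis). Triangles are the single spots, filled circles the mean of the spots of an array, and bars the group mean ± SD over 3 arrays; the 24 genotype arrays lie between 0.68 and 3.72, and the 6 wild-type arrays between -0.79 and 0.21.

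In order of the mean ratio the groups ran from harpin at 8 h (3.33) through the biotic control (2.62), harpin at 4 h (2.53), xanthine oxidase at 8 h (1.77) and at 4 h (1.75), megaspermin at 4 h (1.64) and the abiotic control (1.49) to megaspermin at 8 h (1.24). None of the 7 neighbouring pairs in this order differed by as much as 2 standard errors of a difference (0.40). The widest steps were 0.75, from harpin at 4 h to xanthine oxidase at 8 h, and 0.71, from harpin at 8 h to the biotic control. Of the neighbouring pairs, harpin at 8 h and the biotic control was the one without overlap between arrays.

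ERS varied more between replicate arrays than most clones did. Its residual SD was 0.56, against a median of 0.25 over the 6602 clones with values in all 8 conditions, of which 1.12% had a larger one. The 2 spots of an array differed by a median of 0.25 over the 24 genotype arrays, with a mean of 0.15 ± 0.44 (SD) for the second spot minus the first, and had a correlation of 0.87 over these arrays. The widest gap was on replicate 1 of harpin at 8 h, where the spots read 4.25 and 3.20.

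Arrays also differed in how widely the ratios of all clones spread, and ERS moved with that spread. The SD over all clones ran from 0.47 to 0.81 on the 24 genotype arrays, and the ERS ratio had a correlation with it of 0.53 (rank correlation 0.65), or 0.70 after the mean of each group was taken off both. Arrays in this comparison share pooled cultures and labelling. Replicate 2 of megaspermin had an SD of 0.69 at 4 h and 0.81 at 8 h, while its partners had SDs between 0.53 and 0.55. The part of array spread in the ERS values was not tested, and differences below are given with arrays scaled to a common spread as well where this changes a call or a direction or moves the value by over 1.5 times.

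**Figure D2:**
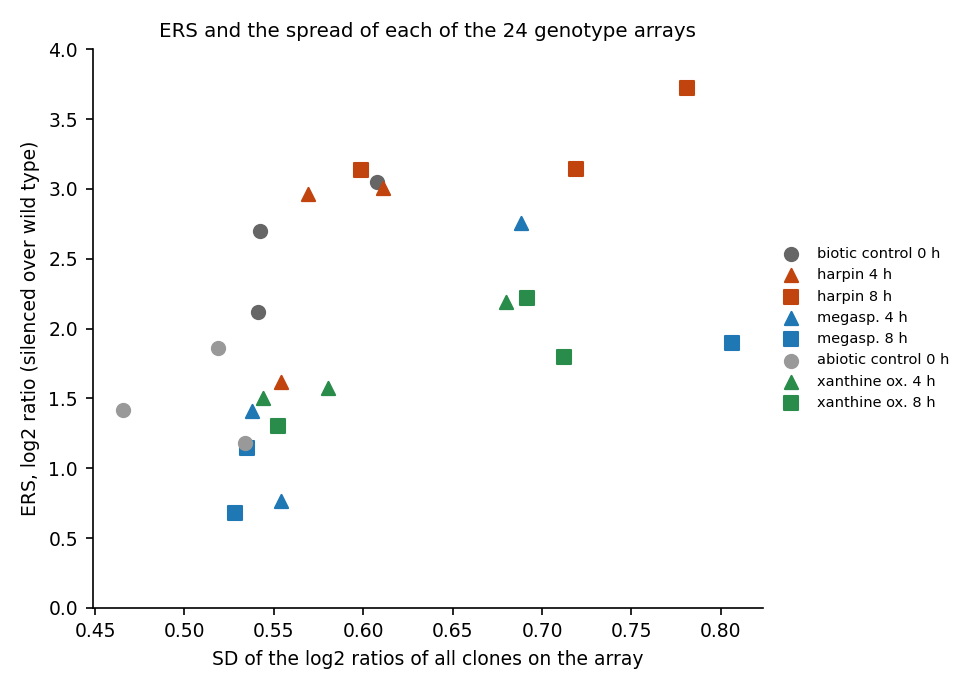
ERS log2 ratio (vertical axis) against the SD of the log2 ratios of all clones on the same array (horizontal axis) for the 24 genotype arrays, coloured by treatment and with symbols for the time. Replicate 2 of megaspermin stands to the right of its partners at 4 h (SD 0.69) and at 8 h (SD 0.81).

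Differences between conditions were tested, since they were not what the gene was chosen for, although the values by condition were known. In all, 17 comparisons of ERS were fitted, each adjusted over all clones tested, and errors given after ± in these comparisons are standard errors. Harpin and megaspermin gave different ratios at 8 h: ERS stood 2.09 ± 0.40 higher with harpin (95% interval 1.27 to 2.92, limma adjusted p = 0.000221, n = 6), a 4.27-fold difference in the genotype ratio, and every harpin array lay above every megaspermin array. In this comparison 27.7% of 8052 clones passed, 12.3% with the direction of ERS. Leaving out any of the 6 arrays in turn gave 1.81 to 2.42, and the difference was 1.90 with arrays scaled.

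At 4 h the difference between the elicitors pointed the same way but did not pass (0.88 ± 0.40, 95% interval 0.06 to 1.71, adjusted p = 0.137, n = 6), and the arrays overlapped. Here 16.6% of 7688 clones passed. This value rested on single arrays: it was 1.44 (adjusted p = 0.0147) without replicate 2 of megaspermin, 1.34 (adjusted p = 0.0284) without replicate 2 of harpin and 0.44 (adjusted p = 0.495) without replicate 3 of megaspermin. With arrays scaled it was 1.11 (adjusted p = 0.0483).

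Against the biotic control the ERS ratio was lower with megaspermin at 8 h (-1.38 ± 0.40, 95% interval -2.20 to -0.56, adjusted p = 0.0113, n = 6), with no overlap between the arrays. Of 9496 clones 25.8% passed in this comparison, 12.4% downward. Both controls were taken at 0 h. In every comparison of a treated group with its control, treatment and time therefore cannot be told apart. The call was lost without replicate 1 of the control (-1.17, adjusted p = 0.0681) or without replicate 3 of megaspermin (-1.10, adjusted p = 0.0605), and with arrays scaled the difference was -2.21. At 4 h of megaspermin the difference of -0.98 ± 0.40 did not pass (95% interval -1.80 to -0.16, adjusted p = 0.0949, n = 6), with 17.2% of 8338 clones past the threshold. It was -1.54 (adjusted p = 0.00749) without replicate 2 of megaspermin and -0.54 (adjusted p = 0.404) without replicate 3, and with arrays scaled it was -1.70 and passed (adjusted p = 0.00184).

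With harpin the ratio did not differ detectably from that of the biotic control. The difference was -0.10 ± 0.40 at 4 h (95% interval -0.92 to 0.73, adjusted p = 0.916, n = 6) and 0.71 ± 0.40 at 8 h (95% interval -0.11 to 1.54, adjusted p = 0.246, n = 6), where 14.2% and 17.8% of clones passed. The value at 8 h went from 0.71 to -0.31 with arrays scaled to a common spread, and that at 4 h was -0.59 with arrays scaled and 0.36 without replicate 2 of harpin, so neither direction was fixed. Megaspermin and harpin were compared with the same 3 control arrays, and these changes are therefore not independent of each other.

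With xanthine oxidase the ratio stayed within 0.29 of the abiotic control. The differences were 0.27 ± 0.40 at 4 h (95% interval -0.55 to 1.09, adjusted p = 0.940) and 0.29 ± 0.40 at 8 h (95% interval -0.54 to 1.11, adjusted p = 0.916), with n = 6 each, and both turned negative with arrays scaled (-0.34 and -0.50). Few clones of any kind moved in these comparisons, 0.0563% and 0.302% of those tested. With the replicate number as a block limma called 0 clones in place of 5 at 4 h (656 at an unadjusted p under 0.05), and ERS had an adjusted p of 0.95.

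From 4 h to 8 h the ERS ratio went from 2.53 to 3.33 with harpin, a difference of 0.81 ± 0.40 that did not pass (adjusted p = 0.165, n = 6), and from 1.64 to 1.24 with megaspermin (-0.40 ± 0.40, adjusted p = 0.523, n = 6), the latter turning to 0.15 without replicate 2 at 4 h. With xanthine oxidase the times differed by 0.02 ± 0.40 (adjusted p = 0.994, n = 6). The share of all clones that passed was 20.4% for harpin, 15.8% for megaspermin and 0.875% for xanthine oxidase. For harpin the first spot alone gave 1.37 (adjusted p = 0.0175) and the second 0.25 (adjusted p = 0.755), and the value was 0.35 without replicate 2 at 4 h and 0.28 with arrays scaled. With arrays scaled the times of xanthine oxidase differed by -0.15. The test of whether the time course differed between harpin and megaspermin gave 1.21 ± 0.57 (95% interval 0.05 to 2.37, adjusted p = 0.164, n = 12) and that between harpin and xanthine oxidase 0.79 ± 0.57 (adjusted p = 0.387, n = 12), with 13.9% and 13% of clones past the threshold. The first of these was 0.65 without replicate 2 of megaspermin at 4 h, 1.65 (adjusted p = 0.0429) without replicate 3 and 0.79 with arrays scaled. The second was 0.43 with arrays scaled and 0.33 without replicate 2 of harpin at 4 h.

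Before any elicitor the ERS ratio was 2.62 in the biotic and 1.49 in the abiotic control, whose cells had been preincubated with xanthine. No array of the biotic control was as low as the highest of the abiotic control, 1.86. The difference of 1.14 ± 0.40 (95% interval 0.31 to 1.96, n = 6) had an adjusted p of 0.136, in a comparison in which 3.75% of 10223 clones passed. It passed when the 2 groups were fitted alone (adjusted p = 0.0229) and with array weights (1.26, adjusted p = 0.00104). These settings also raised the count of all clones past the threshold, from 383 to 741 and to 1346. Leaving out any of the 6 arrays in turn gave 0.92 to 1.39, and the difference never passed (limma adjusted p from 0.0926 to 0.465).

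**Figure D3:**
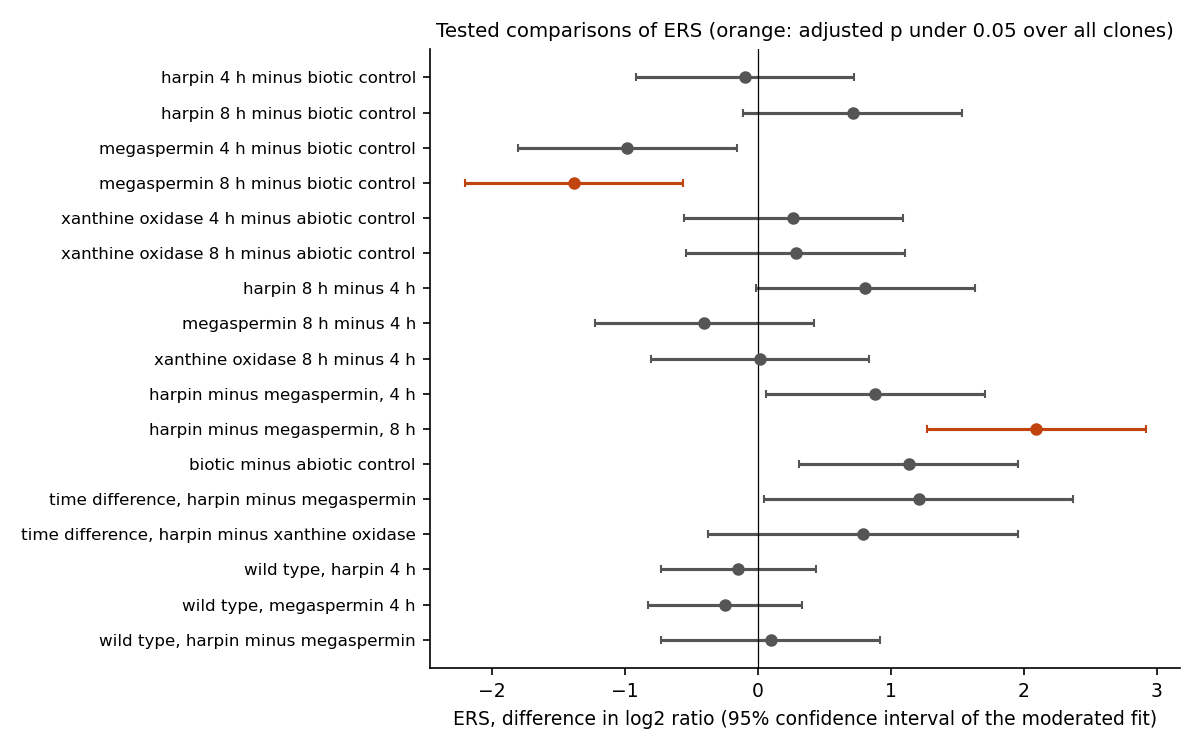
Difference in the log2 ratio of ERS (horizontal axis, with the 95% confidence interval of the moderated fit) for the 17 tested comparisons (vertical axis). The comparisons in orange passed an adjusted p of 0.05: megaspermin at 8 h against the biotic control (-1.38) and harpin against megaspermin at 8 h (2.09).

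In wild-type cells no response of ERS to either elicitor was detected at 4 h. With harpin the 3 arrays read -0.08, -0.35 and -0.002, a mean of -0.15 ± 0.18 (SD, n = 3), and the fit gave an adjusted p of 0.687 with a 95% interval of -0.73 to 0.44. With megaspermin they read -0.16, -0.79 and 0.21 (-0.25 ± 0.51, n = 3; adjusted p = 0.512, 95% interval -0.83 to 0.34), the third of them from 1 spot. Without replicate 2 the megaspermin mean was 0.03, without replicate 3 it was -0.48, and with arrays scaled it was -0.16. By contrast 53.5% of 6637 clones passed with harpin and 46% of 7078 with megaspermin. The elicitors differed by 0.10 ± 0.40 in ERS (adjusted p = 0.918, n = 6; 0.06 with arrays scaled and -0.17 without replicate 2 of megaspermin), where 13.9% of 6032 clones passed. On the dye-exchanged harpin array neither spot of ERS had a value. All of these arrays compare cells at 4 h with cells at 0 h, so the elicitor and the time cannot be told apart, and no wild-type array at 8 h was analysed here.

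The ratios within wild-type cells and between genotypes can be added to give the change of ERS inside silenced cells at 4 h, against the biotic control at 0 h. These sums were chosen after the data had been seen, and they rest on 9 arrays each. They take the untreated wild-type cells of both array sets as alike, and also the wild-type cells treated for 4 h. For megaspermin, whose labels differ between the array sets, the latter rests on the name of the elicitor. With harpin the sum was -0.24 ± 0.49 (standard error, limma adjusted p = 0.738), in a comparison in which 34.4% of 6244 clones passed. It was -0.69 with arrays scaled and 0.22 without replicate 2 of the harpin genotype arrays. With megaspermin it was -1.22 ± 0.49 (95% interval -2.23 to -0.22, adjusted p = 0.077), where 20.6% of 6547 clones passed. The megaspermin sum was -1.78 (adjusted p = 0.00635) without replicate 2 of the genotype arrays, -0.78 without replicate 3 of them, and -1.45 (adjusted p = 0.0423) without replicate 3 of the wild-type arrays. It passed with arrays scaled (-1.86, adjusted p = 0.00707) and with array weights (-1.61, adjusted p = 0.00155). In the same sums METK1, the S-adenosylmethionine synthetase, was higher in 6 of 6 clones with harpin (0.95 to 1.80; 15.8% of clones were higher) and in 8 of 8 with megaspermin (0.80 to 1.24; 10.7% were higher). MS was higher in 1 of 5 clones with harpin (-0.24 to 0.85) and passed in 0 of 5 with megaspermin by limma, adjusted or not (-0.50 to 0.46), and ARD passed in neither sum (0.38 and 0.29). The sums share their control arrays with each other.

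ADH1, an alcohol dehydrogenase of fermentative metabolism that is induced by low oxygen, was the named clone with a higher mean genotype ratio than ERS, at 2.47 ± 0.09 (standard error of the fit, n = 24). It was taken as a comparison because of that ratio. The ERS ratio was above that of ADH1 on 6 of the 24 genotype arrays. At 8 h of xanthine oxidase ADH1 reached 3.42 ± 0.27 (SD, n = 3), 2.18 ± 0.35 above its abiotic control (adjusted p = 0.00161, n = 6), while ERS stood at 1.77. In wild-type cells ADH1 rose with harpin (1.72 ± 0.27, SD, n = 3; limma adjusted p = 1.38e-06) and with megaspermin (1.69 ± 0.66, SD, n = 3; adjusted p = 1.79e-06) and was above ERS on all 6 arrays. Whether the responses of the clones differed was not tested.

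**Figure D4:**
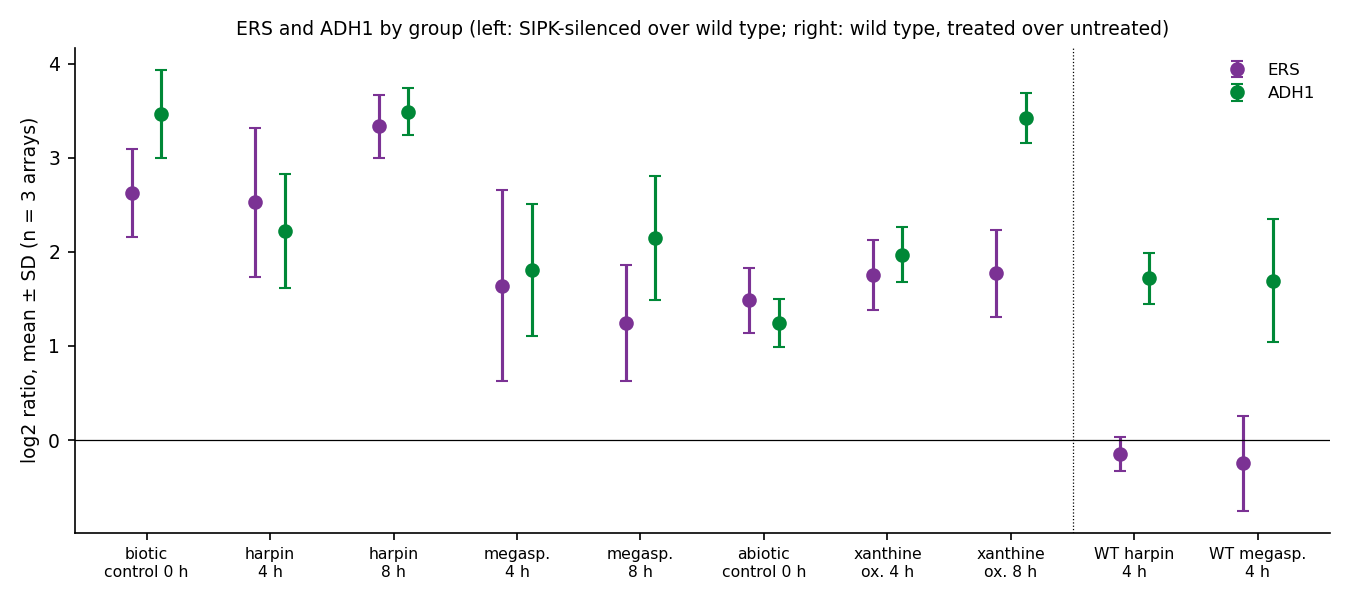
Mean log2 ratio ± SD over 3 arrays (vertical axis) of ERS and ADH1 in the 8 genotype groups (left of the dotted line) and the 2 wild-type groups (right). In wild-type cells ADH1 stands at 1.72 and 1.69 and ERS at -0.15 and -0.25.

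Across the 24 genotype arrays the named clone whose ratio ran most nearly parallel to that of ERS was DE2 (Pearson r = 0.72, Spearman rho = 0.74). ADH1 followed (r = 0.71, rho = 0.71), then SS16 in 2 of its clones (r = 0.62 and 0.59) and SHMT, a serine hydroxymethyltransferase of one-carbon metabolism (r = 0.57). These were the highest of 130 clones with a gene symbol other than a locus number and a value on at least 18 arrays. The lowest were a clone of PHA2, a plasma membrane proton pump (r = -0.79, over 23 arrays), the third SS16 clone (r = -0.75) and BEL5, a homeodomain transcription factor (r = -0.66). Over the 8 group means alone the order changed, with SHMT first at 0.71 and ADH1 at 0.67. Within groups, where only replicate deviations count, ERS had a correlation of 0.89 with ADH1 and 0.82 with DE2. It was 0.57 and 0.80 with the 2 SS16 clones, in the order above, and 0.30 with SHMT. Without the 2 arrays farthest from the median of ERS, both from harpin at 8 h, r was 0.73 for DE2 and 0.66 for ADH1. Such correlations describe arrays that share pooled cultures, a dye orientation and, as shown above, differences in spread: the deviations of ADH1 also had a correlation of 0.66 with the SD of the array.

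The other genes on the route to ethylene that were matched by symbol supply its precursor. The list of ethylene genes matched METK1, the S-adenosylmethionine synthetase (9 clones), MS, a methionine synthase (5 clones), and ARD, the acireductone dioxygenase of methionine salvage (1 clone). Clones of the same symbol were read on the same arrays and can share transcripts. Their counts, here and in the sums above, are therefore not counts of independent genes. ERS was the one match among receptors and signalling genes, and no clone with a single symbol matched an ACC synthase or ACC oxidase. Clones with no symbol (14455) or several (90) were not searched, so such genes may be on the array unnamed. Averaged over the 8 conditions 11 of these 15 clones were higher in silenced cells and 0 lower (0 also at an unadjusted p under 0.05 in limma), where 35.3% of all 6602 clones tested were higher. These were 5 of the 9 METK1 clones, all 5 MS clones and ARD. Their ratios were 0.40 for the highest METK1 clone, 0.83 for the highest MS clone and 0.98 ± 0.05 for ARD. These were smaller than that of ERS, which was chosen for its high ratio, so this is a description. The median of the 15 was 0.39, against -0.01 over all clones tested.

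The METK1 clones ranked the conditions in another order than ERS. In the abiotic control, with ERS at 1.49, all 9 METK1 clones were higher in silenced cells (median 0.62; 11.4% of 10868 clones were higher), and in the biotic control, with ERS at 2.62, 0 were higher (0 also at an unadjusted p under 0.05 in limma) and 3 lower (14.8% of 10276 clones were lower). Tested against each other, the biotic control had lower ratios than the abiotic control for 8 of 9 METK1 clones, by -1.71 to -0.81, where 1.88% of 10223 clones were lower. At 8 h of megaspermin, where ERS was lowest, 6 METK1 clones were lower (18.6% of 9819 clones) and all 5 MS clones higher (18.6%). ARD was lower against the biotic control at this time, by -0.87 ± 0.19 (adjusted p = 0.00117, n = 6), as ERS was, and MS was higher in all 5 clones (0.62 to 1.39; 13.4% of 9496 clones were higher). At 8 h of harpin 3 MS clones stood above the control, by 0.67 to 0.95, where 7.9% of 8244 clones did, and by limma 0 METK1 clones passed, adjusted or not. That count of 3 was 1 with arrays scaled, and 1 without replicate 1 of harpin at 8 h or of the control.

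In wild-type cells, where no change of ERS was detected, most of these clones responded. Of all clones tested, 53.5% passed in either direction with harpin and 46% with megaspermin. With harpin all 6 METK1 clones tested rose, by 0.84 to 1.84, as did ARD (0.83 ± 0.14, adjusted p = 1.01e-05, n = 3) and 2 of 5 MS clones, where 26.9% of all clones rose. With megaspermin 6 of 8 METK1 clones and ARD (0.50 ± 0.14, adjusted p = 0.00315, n = 3) rose, where 23.3% of clones did, and all 5 MS clones fell, where 22.8% did. In all 12 of 14 clones of the list passed with megaspermin, where 46% of 7078 clones did in either direction. Without replicate 3 of that group 7 clones of the list passed.

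**Figure D5:**
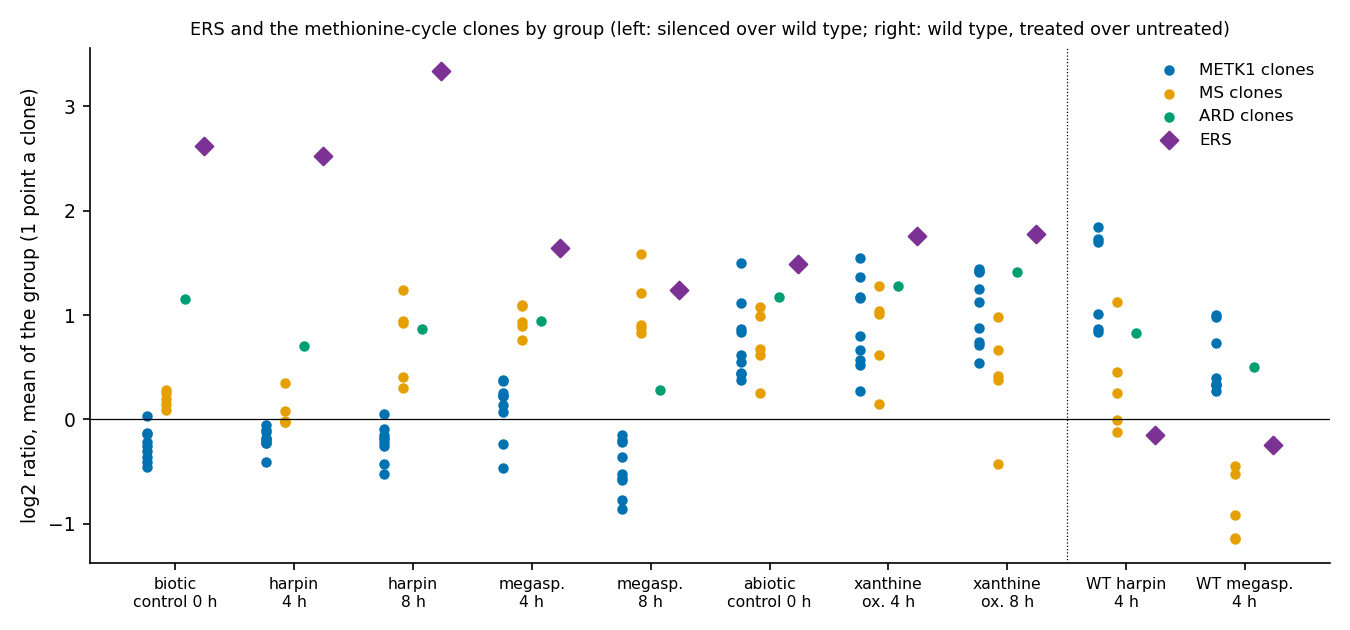
Mean log2 ratio by group (vertical axis) of each METK1, MS and ARD clone (circles) and of ERS (diamonds), for the 8 genotype groups and, right of the dotted line, the 2 wild-type groups. ERS, which was chosen for its high genotype ratio, lies above all these clones in 6 of the 8 genotype groups, the exceptions being the abiotic control (a METK1 clone at 1.50) and megaspermin at 8 h (an MS clone at 1.59), and near 0 in wild-type cells, where METK1 clones reach 1.84 with harpin.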

How the data were processed

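The deposited table held 32448 spots by 32 arrays of potato cDNA clones hybridised with tobacco RNA. The values deposited by the authors were read as log2 ratios of the query over the reference; base 2 and this direction were assumed, since no label or header gives the log base, normalization or direction. The dye-exchanged arrays correlated positively with their standard partners and had therefore already been turned. Spots of a clone were paired by the layout of the array, which placed 905 of 905 clones of the name table correctly, and averaged. Between 5130 and 10935 clones had a value per array, and the number of arrays limits the precision. The name table gave 815 clones 1 symbol, 90 several and 14455 none.

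The 30 standard arrays were fitted as 10 group means in limma 3.58.1 (R 4.3.3), with p-values adjusted by the Benjamini-Hochberg method over all clones having values on at least 2 of 3 arrays in each group compared, and a threshold of 0.05. The model was tested on simulated data. The members, lists and tests were chosen with earlier results of these data known. The rule named ERS, ADH1, the matched ethylene clones, and the 5 clones of highest and 3 of lowest correlation with ERS among those with a symbol other than a locus number. Alternatives were scaling, centring, single spots, a dye term, array weights, the groups of a comparison alone, complete values, the replicate number as a block, and leaving out each array. Same-numbered arrays had correlations of deviations between -0.26 and 0.41. All were above 0.1 for xanthine oxidase at 4 h against its control alone, and the labels state that replicates were paired at random on slides. No slide, print or scan batch is named in the labels.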

Additional observations from a re-analysis of the deposited data

Results flagged for a closer look

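The ERS ratio of silenced to wild-type cells differed between the elicitors at 8 h: with harpin it stood 2.09 higher than with megaspermin on the log2 scale, and the test of the difference itself passed (limma adjusted p = 0.000221, n = 6). All 3 harpin arrays, at 3.14 to 3.72, lay above all 3 megaspermin arrays, at 0.68 to 1.90.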

How the results depend on the processing

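With arrays scaled to a common spread the ERS ratio was 3.30 in the biotic control, 2.99 with harpin at 8 h and 2.22 in the abiotic control. Some differences passed under an alternative alone. Megaspermin at 4 h against the biotic control did so (-1.70 with arrays scaled, -1.25 with array weights, -1.54 to -0.54 leaving out single arrays). Harpin against megaspermin at 4 h did too (1.11 scaled, 1.27 with weights, 0.44 to 1.44 leaving out single arrays). Biotic against abiotic control passed with weights (1.26) and with the groups alone (1.14). Harpin at 8 h against 4 h passed with the first spot alone (1.37). The time course difference of harpin and megaspermin passed with the first spot alone (1.83) and without replicate 3 of megaspermin at 4 h (1.65). Its values leaving out single arrays were 0.65 to 1.65. The megaspermin sum for silenced cells also passed with arrays scaled (-1.86) and with weights (-1.61), and was -1.78 to -0.78 leaving out single arrays. The difference between the controls was 0.92 to 1.39 leaving out single arrays and never passed there. Megaspermin at 8 h against the biotic control ranged from -1.71 to -1.10 leaving out single arrays and lost its call in 2 of 6 cases. Harpin against megaspermin at 8 h passed under every setting run, from 1.74 (second spot alone) to 2.45 (first spot alone). At 8 h of harpin 3 of 15 ethylene clones were called in the main fit, where 17.8% of 8244 clones were in either direction. The count was 1 with arrays scaled and 1 to 3 leaving out single arrays. In wild-type cells with megaspermin 7 of 14 were called higher and 5 lower, where 46% of 7078 clones were called. Leaving out single arrays 7 to 10 of these clones were called there. The replicate block left the differences as they were (2.09 with adjusted p = 0.000417 for harpin against megaspermin at 8 h, -1.38 with adjusted p = 0.0155 for megaspermin at 8 h) and changed no call of ERS. The count of all clones past the threshold moved by over 1.5 times with array weights in 9 of 17 comparisons (from 1469 to 3147 for harpin at 8 h, 1437 to 2915 for megaspermin at 4 h, 383 to 1346 for the controls and 25 to 587 for xanthine oxidase at 8 h), with the groups alone in 7 (1276 to 630 for harpin against megaspermin at 4 h, 383 to 741 for the controls) and with arrays scaled in 4 (383 to 950 for the controls, 836 to 313 between the elicitors in wild-type cells, 5 to 126 for xanthine oxidase at 4 h). The causes of these changes were not tested.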

Other observations

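Over all 7823 clones with enough values, 45 had a correlation with ERS above 0.7 over the 24 genotype arrays and 35 one below -0.7, the extremes being 0.90 and -0.83 and the median -0.01. Of these 39 lay above ADH1. The PHA2 clone of lowest correlation had mean ratios of 0.28 in the biotic control and -0.10 (n = 2) at 8 h of harpin, and of 1.42 and 1.18 with megaspermin at 4 h and 8 h.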
